A study of Rattus norvegicus with 6 samples.

Results

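The genes described here are those on rat chromosome 6, read on Illumina BeadChip arrays of trigeminal nerve RNA. Members are the probes whose 1 gene in the platform annotation lies on chromosome 6 in the RefSeq gene table, put in order of gene start. They number 495 probes for 491 genes, out of 21791 probes on the array, of which 13387 had 1 gene. The 6 arrays held 3 groups of untreated rats aged 85 days, each with 1 pool of male nerves and 1 pool of female nerves. The first group was the congenic strain BDIX.BDIV-Mss4a, which by the naming of congenic strains carries a BDIV segment at the locus Mss4a on a BDIX background. The others were its segment donor, the inbred strain BDIV, and its background strain, the inbred strain BDIX. The study's title ties the congenic rats to a sex-biased suppression of chemically induced tumours of the nervous system. No array came from a tumour or from a treated rat, and a nerve pool mixes Schwann cells, axonal RNA, connective tissue, vessels and blood. The boundaries of the Mss4a segment were not used here, so genes were not sorted into those inside and outside it.

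A congenic strain is made by repeated backcrossing with selection for a donor segment, so that donor alleles are kept around the selected locus and background alleles are kept elsewhere, apart from any segments that remain by chance. A gene inside such a segment carries the donor's own regulatory sequence. A gene elsewhere can differ from the background strain in its expression without a donor allele of its own. BDIX rats are known for malignant schwannomas of the trigeminal nerve after exposure to an alkylating agent early in life, and BDIV rats for their resistance.

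Of the 495 probes 324, each for a different gene, passed a detection p of 0.01 on 2 or more of the 6 arrays and were tested, and 270 of these were detected on all 6. A further 159 were detected on fewer than 2 arrays, 138 of them on none. Another 12 were left out because the deposited signal and the authors' processed value of the probe did not match. Values are log2 normalised intensities, and a difference is a difference of strain means on that scale, adjusted for sex. A gene was called where its adjusted p in limma's moderated test, with Benjamini-Hochberg adjustment over all 10484 tested probes of the array, was under 0.05. With 2 arrays per strain the male and female pools stand in for replicates, so p-values speak of the spread among 6 pools only. Leaving out an array leaves its strain with 1 pool, which that fit takes to vary as the other strains do. The upper quartile of signal stood 2.59 and 2.64 times over background on the congenic arrays, against 6.46 and 6.48 times on the BDIV arrays and 5.34 and 5.96 times on the BDIX arrays, so dim genes were measured least well in the congenic strain. The SD of the male minus female differences over tested probes was 0.46 in the congenic strain, 0.21 in BDIV and 0.52 in BDIX. Of 5 tested markers of myelinating Schwann cells, Pmp22 carried most of the summed intensity, which was 39100 and 42460 in the congenic pools, 35270 and 33060 in the BDIV pools and 48140 and 61910 in the BDIX pools. Mbp, Pllp and Ugt8 were lower in the congenic strain than in BDIX, at -2.15, -1.82 and -1.80 (adjusted p = 0.00908 each), and the list's median was -1.80. Pmp22 went the other way, at 0.24, and was not called (adjusted p = 0.450). Mag was not detected on the congenic male array. Of 4 fibroblast markers, Col1a1 and Col3a1 were lower in the congenic strain than in BDIX, at -2.05 and -1.60, with summed intensities of 34810 and 40280 in the congenic pools, 34680 and 28170 in the BDIV pools and 45950 and 48520 in the BDIX pools. Neutrophil markers summed to 7867 and 306.5 in the congenic male and female pools, 225.5 and 218.4 in the BDIV pools and 8244 and 1222 in the BDIX pools, with S100a9 detected on no array. Markers of airway and lingual glands summed to 4424 and 4576 in the congenic pools, 155.7 and 174.8 in the BDIV pools and 167 and 148.3 in the BDIX pools. All 5 were called higher in the congenic strain against each parent. Bpifa1, Lipf, Vegp2 and Cyp2g1 were each detected on 2 arrays only, with their high values in the congenic pools. They passed the detection filter through those pools, so their calls add nothing to the sums. Lcn1 was detected on 4 arrays. Erythrocyte markers summed to 9125 and 6295 in the congenic pools, 1613 and 1161 in the BDIV pools and 16760 and 10370 in the BDIX pools. Markers of oligodendrocytes and central nervous tissue summed to 4227 and 15420 in the congenic male and female pools. Their sums were 2617 and 6160 in the BDIV pools and 3333 and 1143 in the BDIX pools, and none of the 3 tested was called in any comparison. Gfap carried most of each sum, with log2 values of 11.96 and 13.75 in the congenic pools, so the sums speak mainly of that gene. Opalin was detected on no array. The part of these cells in the differences below was not tested, and in bulk nerve fewer cells of a type and less RNA per cell cannot be told apart.

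The promoters of 2 pairs of neighbouring genes are shown because the largest differences between the parent strains lay at Plekhh1 and Gpx2, and the next tested genes, Pigh and Rab15, are shown beside them for comparison. Each is the RefSeq reference sequence from 250 bases before to 50 bases after the gene start, in the gene's own direction, and not the sequence of the strains studied. Capitals mark matches, on either strand, to the GC box GGGCGG, the CCAAT box CCAAT, the AP-1 site TGANTCA and the core of the antioxidant response element TGACNNNGC.
Plekhh1 (GRCr8 chr6:103572054-103572353, plus strand): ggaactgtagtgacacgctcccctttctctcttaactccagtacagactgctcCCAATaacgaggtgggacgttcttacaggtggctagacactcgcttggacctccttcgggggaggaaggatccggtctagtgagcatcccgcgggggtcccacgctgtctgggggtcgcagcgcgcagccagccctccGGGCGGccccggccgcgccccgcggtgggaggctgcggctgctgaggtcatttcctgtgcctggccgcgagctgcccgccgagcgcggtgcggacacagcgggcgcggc
Pigh (GRCr8 chr6:103630110-103630409, minus strand): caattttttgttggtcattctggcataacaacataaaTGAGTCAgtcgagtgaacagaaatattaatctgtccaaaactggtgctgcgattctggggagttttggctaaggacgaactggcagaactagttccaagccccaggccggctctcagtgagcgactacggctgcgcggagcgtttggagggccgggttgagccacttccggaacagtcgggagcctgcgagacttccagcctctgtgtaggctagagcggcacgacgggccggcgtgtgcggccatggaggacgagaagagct
Gpx2 (GRCr8 chr6:101229984-101230283, minus strand): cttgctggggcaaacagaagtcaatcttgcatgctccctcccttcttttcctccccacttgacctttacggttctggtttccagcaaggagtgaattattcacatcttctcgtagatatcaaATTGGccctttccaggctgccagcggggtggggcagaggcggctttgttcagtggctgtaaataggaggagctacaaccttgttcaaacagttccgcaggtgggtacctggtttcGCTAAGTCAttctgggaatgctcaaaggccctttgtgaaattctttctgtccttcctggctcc
Rab15 (GRCr8 chr6:101257034-101257333, minus strand): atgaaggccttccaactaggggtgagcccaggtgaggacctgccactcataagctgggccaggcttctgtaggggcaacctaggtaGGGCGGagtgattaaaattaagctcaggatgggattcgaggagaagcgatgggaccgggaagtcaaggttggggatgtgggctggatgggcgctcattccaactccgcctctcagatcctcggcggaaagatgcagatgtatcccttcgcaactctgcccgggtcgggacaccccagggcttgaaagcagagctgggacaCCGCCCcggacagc
The Plekhh1 promoter was 68.3% G or C with 30 CpG dinucleotides, against medians of 51.67% and 7 over all promoters of this length, and it held a GC box and a CCAAT box. The Pigh promoter, at 55.7% and 20 CpG, held neither and had an AP-1 match. The Gpx2 promoter, at 50.3% and 6 CpG, held a CCAAT box and an antioxidant response element core starting 13 bases before the gene start. The Rab15 promoter, at 59.3% and 13 CpG, held 2 GC boxes. Of all 33469 promoters 33.1% held a GC box, 37.5% a CCAAT box, 7.33% an AP-1 match and 12.1% the antioxidant response element core, so each match is common by its letters alone. TATAAA, found in 14.2% of promoters, and the E-box CACGTG, found in 6.42%, were in none of the 4.

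Plekhh1, which encodes a protein with pleckstrin homology, MyTH4 and FERM domains, had the largest difference of any tested chromosome 6 gene in congenic minus BDIX and in BDIV minus BDIX. Its log2 intensity was 8.34 and 8.71 in the congenic pools, 8.44 and 8.49 in the BDIV pools and 4.84 and 4.90 in the BDIX pools. The congenic and BDIV values lay within 0.4 of each other, and both BDIX values lay at the background. The congenic level was at least 11-fold that of BDIX (log2 difference 3.66 ± 0.23 SE, adjusted p = 0.00237 in limma) and the BDIV level at least 10.6-fold (3.60 ± 0.23, adjusted p = 6.66e-04). A fold against a strain in which a probe was detected on no array is such a lower bound, taken against the lowest intensity of a detected probe on each array or the probe's own where that was higher. Congenic minus BDIV was 0.06 ± 0.23 (adjusted p = 0.852), which does not show that these strains were alike. The deposited signals were 246 and 289 in the congenic pools, 536 and 542 in the BDIV pools and 68.6 and 64.7 in the BDIX pools, so the order of congenic and BDIV on the unscaled signal followed the brightness of their arrays. The detection p of this probe is 1 of 623 that lie between the steps of the others, as an average over bead types would. It was 0.0095 and 0.0576 in the BDIV pools despite their high signals, so the detection of this probe did not follow its signal. Both calls of Plekhh1 against BDIX held with each array left out in turn. Strain differences in the sequence that a probe binds would also change its intensity, for this gene or the others, and were not analysed here.

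The tested genes nearest to Plekhh1 did not share its pattern, apart from a smaller difference at Pigh. Pigh, a subunit of the enzyme that begins the synthesis of glycosylphosphatidylinositol anchors, is the next gene and overlaps Plekhh1 in the annotation. Its log2 intensity was 6.99 and 7.41 in the congenic pools, 7.20 and 7.22 in the BDIV pools and 6.23 and 6.23 in the BDIX pools, with both BDIX values below the other 4. It was called higher in the congenic strain than in BDIX by 0.97 ± 0.24 (adjusted p = 0.0434) and in BDIV than in BDIX by 0.98 ± 0.24 (adjusted p = 0.0237). These calls held in 2 and 3 of the 6 fits with an array left out, with adjusted p up to 0.186 without the congenic female pool and 0.175 without the BDIV male pool. Arg2, the mitochondrial arginase, read 8.21 and 7.42 in the congenic pools, 9.18 and 9.07 in the BDIV pools and 7.12 and 7.08 in the BDIX pools. The congenic values lay between those of the parents. BDIV was higher than BDIX by 2.03 ± 0.25 (adjusted p = 0.00448), while the congenic strain was lower than BDIV by 1.31 (difference -1.31 ± 0.25, adjusted p = 0.00910; 0.0796 without the BDIV female pool) and not called against BDIX (0.72 ± 0.25, adjusted p = 0.100). Eif2s1, which encodes the alpha subunit of the translation initiation factor eIF2, lies on the other side of Plekhh1. It read 7.30 and 7.20 in the congenic pools, 8.57 and 8.74 in the BDIV pools and 8.39 and 8.65 in the BDIX pools. Here the congenic strain stood below both parents, by -1.40 ± 0.21 against BDIV (adjusted p = 0.00414) and -1.27 ± 0.21 against BDIX (adjusted p = 0.0206; 0.0755 without the congenic female pool). Atp6v1d, a subunit of the proton pump of lysosomes and synaptic vesicles, and Gphn, gephyrin, were called in none of the 3 comparisons. Pals1, between them, was higher in the congenic strain than in BDIV by 1.03 (adjusted p = 0.00998). It was lower in BDIV than in BDIX (-0.67, adjusted p = 0.0498). Plek2 and Tmem229b, between Eif2s1 and Plekhh1, were detected on 0 and 1 arrays and not tested.

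**Figure D1:**
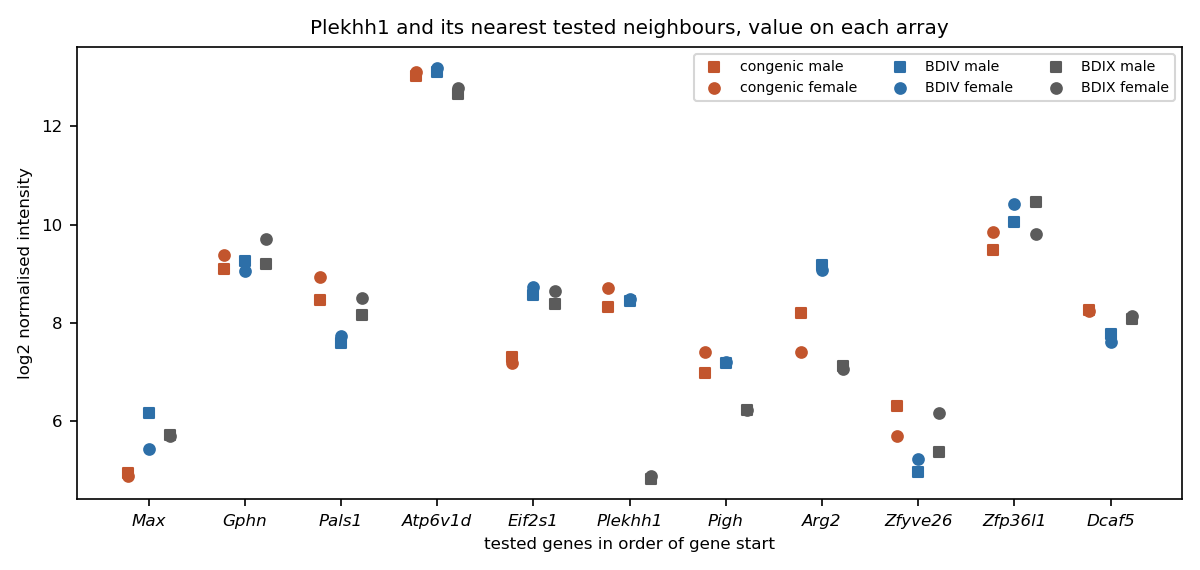
Log2 normalised intensity on each of the 6 arrays for Plekhh1 and the 5 tested genes on either side, in order of gene start, with squares for male and circles for female pools and a colour for each strain. Plekhh1 stands at 8.34 to 8.71 in the congenic and BDIV pools and at 4.84 and 4.90 in the BDIX pools, while Eif2s1 beside it is lowest in the congenic pools.

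Gpx2, a selenium-dependent glutathione peroxidase best known from the gut lining, had the second largest difference between the parents. Its log2 intensity was 9.90 and 9.64 in the congenic pools, 10.77 and 10.64 in the BDIV pools and 8.24 and 7.00 in the BDIX pools. The 3 strains did not overlap, with the congenic strain between its parents and nearer to BDIV. The congenic strain was above BDIX by 2.15 ± 0.29 (adjusted p = 0.0128), and this call held with each array left out. BDIV was above BDIX by 3.08 ± 0.29 (adjusted p = 0.00228), and congenic minus BDIV was -0.94 ± 0.29 (adjusted p = 0.0387; 0.292 without the BDIV female pool). Rab15, a small GTPase of endosomal recycling, is the next tested gene, and its congenic values lay near those of BDIX instead. It read 4.92 and 5.40 in the congenic pools, 6.81 and 6.78 in the BDIV pools and 5.17 and 5.48 in the BDIX pools, and was detected on neither congenic array. It was at least 2.64-fold lower in the congenic strain than in BDIV (adjusted p = 0.00382), and BDIV was above BDIX by 1.47 ± 0.24 (adjusted p = 0.00730; 0.0525 without the BDIV male pool). Congenic minus BDIX was -0.16 ± 0.24 (adjusted p = 0.656).

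Between the congenic strain and BDIX, 35 of the 324 tested chromosome 6 genes were called, a share of 10.8% against 11.9% of all tested probes, which is near the background. Of these 15 were higher in the congenic strain, against 4.31% of all probes, and 20 were lower, against 7.57%. Under median scaling of the arrays, which shifted the median over all probes by 0.19, 37 were higher and 18 lower. Together they made 17.0%, against 17.5% of all probes. The count rose without either BDIX pool and fell without the congenic female pool, and the share over all probes rose and fell with it. Of the 35 genes called in the main fit, 21 were more than 2-fold apart, 6.48% of the tested genes against 7.63% of all probes. The median size of the difference was 0.40 on chromosome 6 and 0.39 over all probes. Beside Plekhh1 and Gpx2, the genes higher in the congenic strain included Osr1, a zinc finger transcription factor of connective tissue precursors. Osr1 read 6.93 and 7.19 in the congenic pools, 4.90 and 4.95 in the BDIV pools and 5.56 and 5.76 in the BDIX pools. The congenic values stood above both parents, by 1.40 ± 0.22 against BDIX (adjusted p = 0.0182) and at least 3.91-fold against BDIV (adjusted p = 0.00183). Efcab10, an EF-hand gene, was at least 2.88-fold higher than in BDIX (adjusted p = 0.0364; 0.0760 without the BDIX female pool). Ankrd9, an ankyrin repeat gene, was higher by 1.26 ± 0.24 (adjusted p = 0.0257; 0.0669 without the congenic female pool). Prkce, the protein kinase C isoform of nociceptor sensitisation, read 9.55 and 8.97 in the congenic pools, 9.85 and 9.48 in the BDIV pools and 8.25 and 8.03 in the BDIX pools, so the congenic and BDIV ranges overlapped above BDIX. It was higher than in BDIX by 1.13 ± 0.19 (adjusted p = 0.0222; 0.107 without the congenic male pool).

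Among the genes lower in the congenic strain than in BDIX, Hsp90aa1, the inducible cytosolic Hsp90 chaperone, read 9.78 and 9.34 in the congenic pools, 11.69 and 11.49 in the BDIV pools and 10.84 and 11.58 in the BDIX pools. It stood below both parents, by -1.65 ± 0.28 against BDIX (adjusted p = 0.0222; 0.0592 without the congenic female pool) and -2.04 ± 0.28 against BDIV (adjusted p = 0.00347). Rps6ka5, the nuclear kinase MSK1, read 6.18 and 6.54 in the congenic pools, 6.40 and 6.12 in the BDIV pools and 7.47 and 8.02 in the BDIX pools. The congenic and BDIV values overlapped, both below BDIX, and the congenic difference from BDIX was -1.38 ± 0.27 (adjusted p = 0.0274). Snx13, a sorting nexin of endosomes, was at least 2.50-fold lower in the congenic strain than in BDIX (adjusted p = 0.0210), and Tc2n, a protein with tandem C2 domains, at least 2.97-fold lower (adjusted p = 0.0255). Pdia6, a protein disulphide isomerase of the endoplasmic reticulum, differed by -1.11 ± 0.18 (adjusted p = 0.0194; 0.123 without the congenic male pool), and Fkbp3, a nuclear prolyl isomerase, by -1.33 ± 0.22 (adjusted p = 0.0210; 0.122 without the congenic male pool). Of the 28 genes called in this comparison that the naming rule picked, 6 held with each array left out: Osr1, Snx13, Gpx2, Plekhh1, Rps6ka5 and Tc2n.

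**Figure D2:**
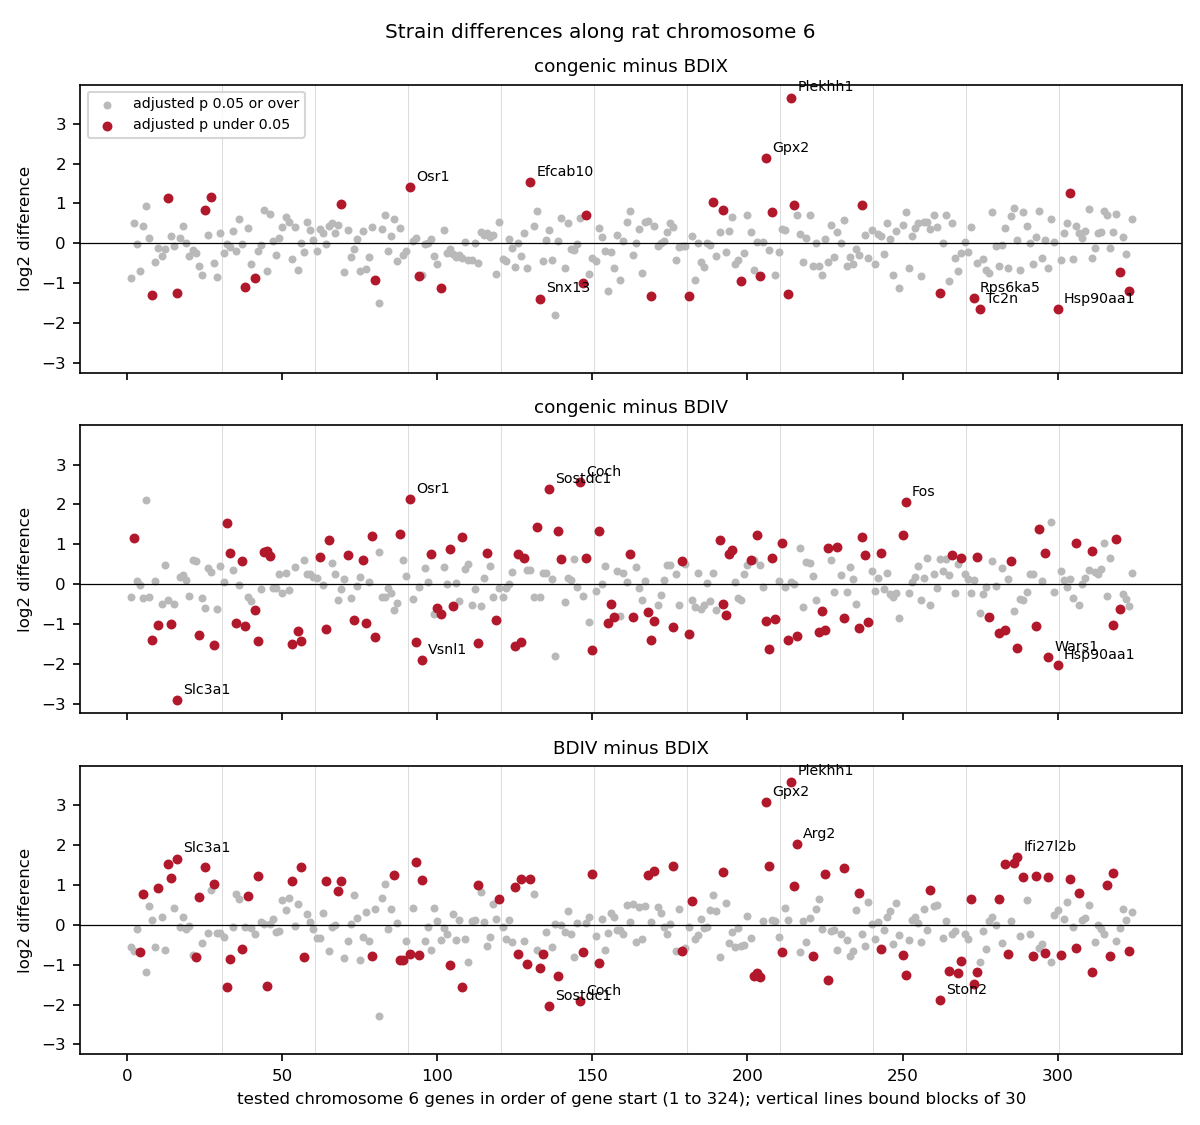
Log2 differences of the 324 tested chromosome 6 genes in order of gene start, for congenic minus BDIX, congenic minus BDIV and BDIV minus BDIX, with called genes in red and the 8 largest called differences of each panel named. Plekhh1 at 3.66 and Gpx2 at 2.15 stand above the other congenic minus BDIX differences, and neither stands out in congenic minus BDIV.

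Between the congenic strain and BDIV, 110 chromosome 6 genes were called, 34.0% against 37.0% of all tested probes, and again near the background. In the congenic strain 52 were higher, against 18.1% of all probes, and 58 were lower, against 18.9%, and 55 were over 2-fold apart, 17.0% against 20.1%. The count fell without any 1 of the BDIV or congenic pools and rose without either BDIX pool, and the share over all probes fell and rose with it. Under median scaling 56.6% of the calls were higher, against 47.3%. Slc3a1, the heavy subunit of the cystine and dibasic amino acid transporter, read 7.56 and 7.47 in the congenic pools, 10.37 and 10.49 in the BDIV pools and 8.51 and 9.03 in the BDIX pools. The congenic strain was the lowest of the 3, by -2.91 ± 0.22 against BDIV (adjusted p = 7.73e-04) and -1.25 ± 0.22 against BDIX (adjusted p = 0.0223; 0.0922 without the congenic female pool). Vsnl1, a neuronal calcium sensor, differed by -1.91 ± 0.28 (adjusted p = 0.00394) and Wars1, the cytosolic tryptophan tRNA ligase, by -1.83 ± 0.20 (adjusted p = 0.00198). Coch, which encodes the matrix protein cochlin, was higher than in BDIV by 2.55 ± 0.26 (adjusted p = 0.00170), with 8.40 and 9.47 in the congenic pools, 6.23 and 6.53 in the BDIV pools and 7.79 and 8.79 in the BDIX pools. The congenic and BDIX ranges of Coch overlapped above BDIV. Sostdc1, a secreted antagonist of BMP and Wnt signalling, was higher by 2.38 ± 0.22 (adjusted p = 0.00139), with 12.48 and 12.47 in the congenic pools, 9.76 and 10.43 in the BDIV pools and 12.11 and 12.17 in the BDIX pools. Fos, the immediate early transcription factor, was higher by 2.05 ± 0.35 (adjusted p = 0.00617) and Cyp1b1, a cytochrome P450 that oxidises steroids and aromatic hydrocarbons, by 1.54 ± 0.18 (adjusted p = 0.00236). Twist1, a transcription factor of mesenchyme, was at least 2.72-fold higher (adjusted p = 0.00617; 0.0585 without the BDIV female pool). Erythrocyte markers moved with this comparison, with all 4 called higher in the congenic strain, and so did most sensory neuron markers, with 4 of 6 called lower. Snap25, at -0.62, was not called, and Nefl went the other way, at 0.37, also not called. Of 4 Schwann lineage markers, Sox10 and Erbb3 were called higher in the congenic strain, at 1.33 and 1.46, while S100b and Cdh19 were not called. Of 5 myelinating Schwann cell markers, Pllp and Ugt8 were called lower instead, at -0.69 and -0.63. Pmp22, at 0.51, was not called, and the median of that list was -0.58. The part of these markers in the differences was not tested.

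Between the parents, 97 chromosome 6 genes were called, 29.9% against 27.3% of all tested probes, with 50 higher in BDIV, against 13.7% of all probes, and 47 lower, against 13.6%. Over 2-fold apart were 55 of them, 17.0% against 15.3%. The count fell without either BDIV pool, and so did the share over all probes. Markers moved with this comparison too: 4 of 4 tested erythrocyte, 4 of 4 tested neutrophil and 3 of 4 fibroblast markers were called lower in BDIV. So were 3 of 5 myelinating Schwann cell and 2 of 4 Schwann lineage markers. The part of all these markers in the differences was not tested. After Plekhh1, Gpx2 and Arg2, the genes highest in BDIV included Ifi27l2b, of a family of interferon-induced genes, at 1.70 ± 0.28 above BDIX (adjusted p = 0.00760). Kcns3, a modulatory subunit of voltage-gated potassium channels, was higher by 1.57 ± 0.21 (adjusted p = 0.00493), with 11.79 and 11.66 in the BDIV pools against 9.91 and 10.40 in the BDIX pools. Chga, chromogranin A of dense core vesicles, was higher by 1.52 ± 0.22 (adjusted p = 0.00572). Lower in BDIV were Sostdc1, by -2.04 ± 0.22 (adjusted p = 0.00280), Coch, by -1.91 ± 0.26 (adjusted p = 0.00493), and Adam17, the protease that sheds tumour necrosis factor, by -1.57 ± 0.18 (adjusted p = 0.00373). Ston2, an adaptor for synaptic vesicle uptake, read 6.86 and 7.15 in the congenic pools, 6.40 and 6.36 in the BDIV pools and 7.80 and 8.71 in the BDIX pools. Its congenic values lay between the parents, and BDIV was lower than BDIX (-1.88 ± 0.28, adjusted p = 0.00600). Counting all 3 comparisons, 170 of the 324 genes were called in none, 70 in 1, 80 in 2 and 4 in all 3. The comparisons share arrays, so these counts are not independent of each other. The same counts over all tested probes were not made, so they cannot be read as a trait of chromosome 6.

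Compared by share of probes called, chromosome 6 ranked 14 of 21 chromosomes in congenic minus BDIX, 15 in congenic minus BDIV and 4 in BDIV minus BDIX, counted from the highest.

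**Figure D3:**
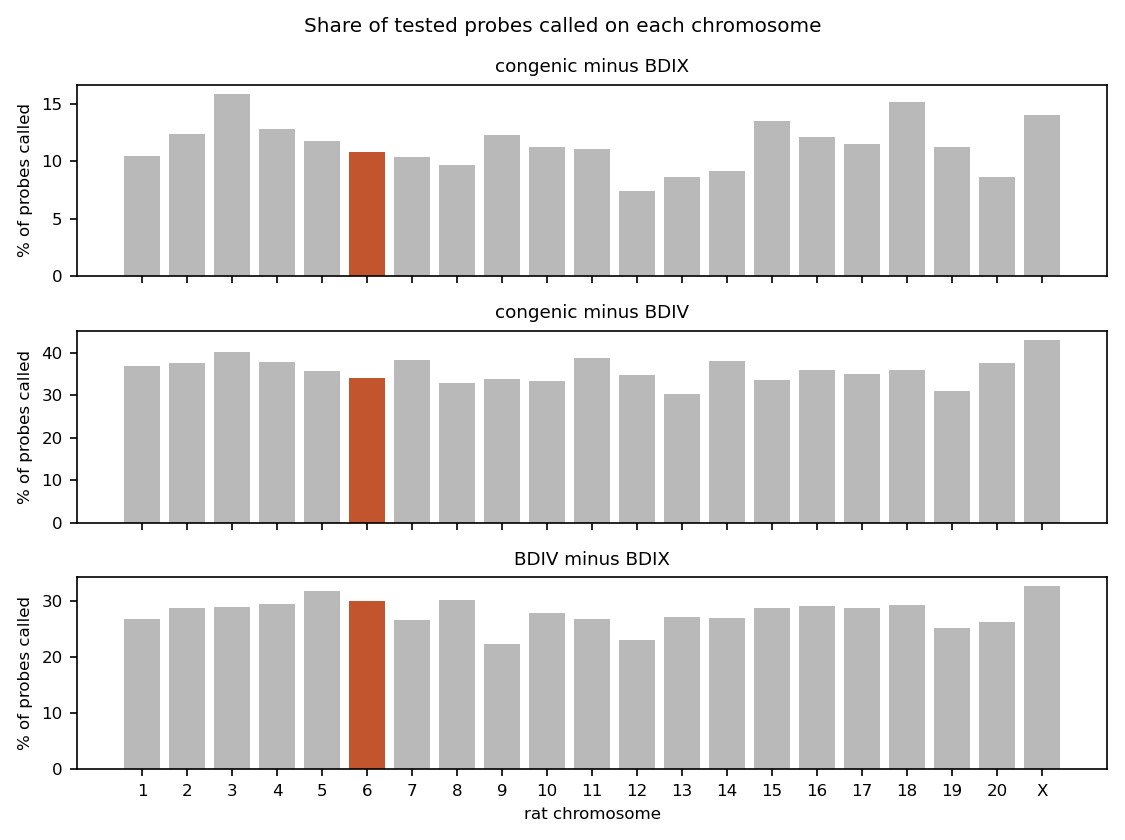
Percent of tested probes called on each rat chromosome in congenic minus BDIX, congenic minus BDIV and BDIV minus BDIX, with chromosome 6 in colour. Chromosome 6 stands at 10.8%, 34.0% and 29.9% and is among the other chromosomes in each panel.

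Along the chromosome the genes were read in 11 blocks of neighbours, 30 tested genes in each and 24 in the last. In congenic minus BDIX, the block from Tmx1 to Gphn, which holds Gpx2, had the most calls, 7 of 30 or 23.3%. The next block, from Pals1 to Ltbp2, which holds Plekhh1, had 4 of 30 or 13.3%. With blocks of 20 genes the block of Plekhh1 had 6 of 20 called, since it then also held Ppp1r36, Gpx2 and Fntb. The blocks of the other chromosomes, 240 in all, held 0 to 36.7% called, so neither block lay beyond their range. In congenic minus BDIV, the block from Arel1 to Ttc8, next after that of Plekhh1, had 5 of 30 called, 16.7% against 37.0% of all probes, and all 5 were higher in the congenic strain. Its median size of difference was 0.31, the smallest of the 11 blocks. It was the smallest in 14 of the 16 settings, the main one included, with a range of 0.25 to 0.48 over those settings. Settings that drop the sex term, a BDIX pool or the BDIX strain leave these differences unchanged by design. The number of settings is therefore no measure of support. In blocks of the other chromosomes the median size ran from 0.20 to 0.87. In congenic minus BDIX the same block had a median size of 0.50, above the 0.39 of all probes, but 1 call, Ston2, and in BDIV minus BDIX it had 8 calls, 7 of them lower in BDIV.

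**Figure D4:**
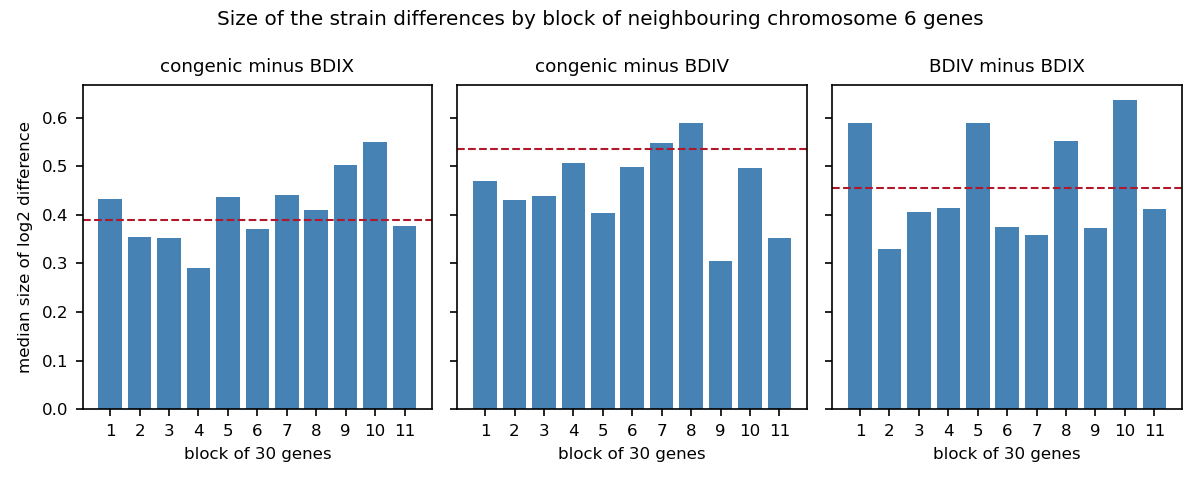
Median size of the log2 difference in each of the 11 blocks of neighbouring chromosome 6 genes, in order along the chromosome, for the 3 comparisons, with the dashed line at the median over all tested probes. Block 9, from Arel1 to Ttc8, is the lowest bar in congenic minus BDIV at 0.31.

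Whether the congenic strain lay nearer to BDIV or BDIX was first read without sharing arrays between the choice and the reading. Genes at least 1 apart on the log2 scale between the parents in pools of 1 sex were picked, and the congenic pool of the other sex was placed nearer to BDIV or to BDIX of its own sex. Of 48 chromosome 6 genes picked in males, 15 or 31.2% were nearer to BDIV in females, against 20.7% of 1503 other probes. Of 81 picked in females, 33 or 40.7% were nearer to BDIV in males, against 31.3% of 2409 other probes. The other probes include some with no chromosome in the annotation. The shares of the other chromosomes ran from 13.6% to 31.2% and from 21.4% to 49.1%, so chromosome 6 was at the top of the range in the first reading and inside it in the second. Of the 35 genes picked in both sexes, 19 were nearer to BDIX in both, 11 nearer to BDIV in both and 5 divided. For these genes the arrays read are also among those that picked them, so the tally is a description only. The 11 were Prkce, Tmem178a, Efcab10, Mnat1, Gpx2, Plekhh1, Ston2, Ptpn21, Rps6ka5, Serpina1 and Ankrd9. They lie at both ends of the chromosome as well as around Plekhh1, with genes nearer to BDIX between them, such as Slc3a1, Kcns3 and Wars1.

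**Figure D5:**
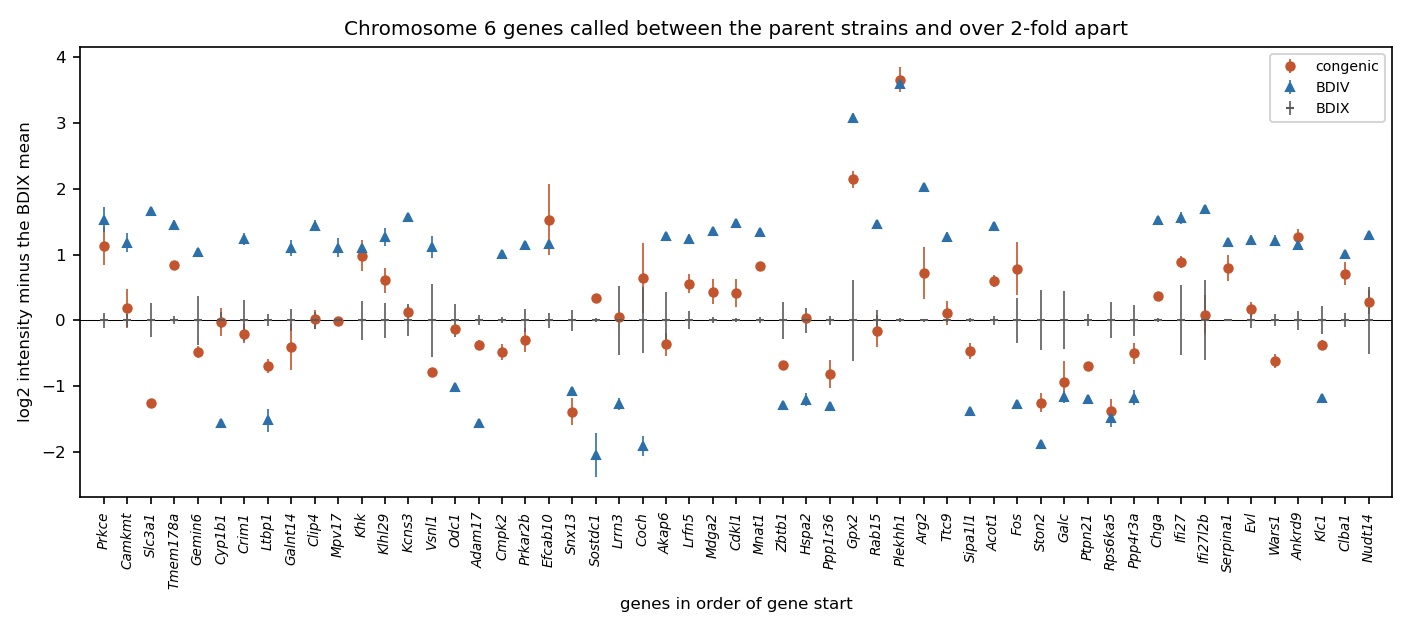
Mean log2 intensity minus the BDIX mean for the 55 chromosome 6 genes called and over 2-fold apart between BDIV and BDIX, in order of gene start, with bars over the range of the male and female pools. At Plekhh1 the congenic mean is level with BDIV, at Gpx2 it is between the parents, and at Kcns3 or Cyp1b1 it is level with BDIX.

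Across the 324 genes, the congenic minus BDIX difference in males correlated with the BDIV minus BDIX difference in females at Pearson's r of 0.28, against 0.088 over the 10160 other tested probes. The same in females against males gave 0.11, against 0.072. The 10160 include probes with no gene or chromosome in the annotation, so they are an unlike set to the chromosome 6 genes. The other chromosomes, each taken alone, ran from 0.022 to 0.26 and from -0.078 to 0.32. These are descriptions over genes that share arrays and neighbours, and 1 gene carried much of the second r: without Plekhh1 the values were 0.23 and 0.038, and without Plekhh1 and Gpx2 they were 0.20 and -0.0004. Spearman's rho moved less. For females against males it was 0.11 over all 324 genes, 0.10 without Plekhh1 and 0.095 without both, against 0.063 over the other probes. By block, r in the block of Plekhh1 was 0.56 and 0.59, and 0.20 and 0.17 without Plekhh1. In the block of Gpx2 it was 0.45 and 0.50, and 0.21 and 0.23 without Gpx2. In a split of the blocks made after the values were seen, Pearson's r in the first 5 blocks ran from -0.053 to 0.28 for males against females and from -0.28 to -0.082 for females against males, where Spearman's rho was above 0 in blocks 1 and 3, at 0.12 and 0.067. In the last 6 blocks Pearson's r ran from 0.27 to 0.56 and from 0.043 to 0.59. The top of both these ranges was the block of Plekhh1. Without that gene its r of 0.20 and 0.17 lay within the first range of the first 5 blocks and above the second. By Spearman's rho the first 5 and last 6 blocks overlapped. For males against females rho ran from -0.073 to 0.29 and from 0.20 to 0.42. For females against males it ran from -0.15 to 0.12 and from 0.030 to 0.42.

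The members were also grouped by what they are known to do. Among genes of axons, neurons and synapses, 28 of 39 were tested. Between BDIV and BDIX 11 were higher in BDIV and 3 lower, against 13.7% and 13.6% of all probes, with a median difference of 0.40 against -0.03 over all probes, and the higher genes included Kcns3, Vsnl1, Chga, Rab15, Lrfn5, Mdga2 and Evl. Lrfn5 and Mdga2, cell adhesion proteins of synapses, were higher by 1.24 ± 0.20 and 1.36 ± 0.19, and Klc1, a kinesin light chain, was lower (-1.19, adjusted p = 0.00804; 0.106 without the BDIV female pool). The same list gave 3 higher and 8 lower in congenic minus BDIV, against 18.1% and 18.9% of all probes, and 2 higher and 1 lower in congenic minus BDIX, against 4.31% and 7.57%. Most sensory neuron markers moved with it: their summed intensity was 71140 and 58600 in the congenic pools, 88890 and 84890 in the BDIV pools and 53500 and 66650 in the BDIX pools. Of 6 tested, 4 were called higher in BDIV than in BDIX. Snap25, at 0.48, was not called. Nefl went the other way, at -0.20, and was not called either. Calca was detected on no array. Their part in the list was not tested.

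Of 22 tested transcription factors, 5 were called lower in BDIV than in BDIX, against 13.6% of all probes, namely Osr1, Fos, Zbtb1, Zfp36l2 and Ahr. Each of these calls was lost without the BDIV female pool, with adjusted p of 0.418 for Osr1, 0.150 for Fos, 0.0747 for Zbtb1, 0.242 for Zfp36l2 and 0.237 for Ahr. Ahr, the aryl hydrocarbon receptor that induces Cyp1b1, differed by -0.73 (adjusted p = 0.0322), and Cyp1b1 itself by -1.56 ± 0.18 (adjusted p = 0.00403). Neither was called between the congenic strain and BDIX, at -0.45 and -0.03. Among 19 genes of redox, xenobiotic and one-carbon metabolism, 2 were higher in the congenic strain than in BDIX, against 4.31% of all probes, Gpx2 and Khk, the ketohexokinase of fructose breakdown. Of 13 translation genes, 5 were lower in the congenic strain than in BDIV, against 18.9% of all probes, and 1 was higher, against 18.1%. The lower were Eif2s1, Wars1, Srp54a, Trmt5 and Eif2ak2, the RNA-activated kinase that phosphorylates eIF2. Without the BDIV male pool the adjusted p was 0.198 for Eif2ak2 and 0.359 for Srp54a, and without the BDIV female pool it was 0.162 for Trmt5. Eif2ak2 was detected on neither congenic array and was at least 1.87-fold lower than in BDIX (adjusted p = 0.0377; 0.0955 without the congenic male pool). Also called between the congenic strain and BDIX were Rtn1, a reticulon of the endoplasmic reticulum, and Mnat1, the assembly factor of the kinase module of TFIIH, both higher, and Dnmt3a, a DNA methyltransferase, and Mta1, a chromatin remodelling subunit, both lower. With an array left out, the adjusted p in congenic minus BDIX reached 0.177 for Khk and 0.327 for Rtn1 without the congenic male pool, and 0.211 for Mnat1, 0.169 for Dnmt3a and 0.335 for Mta1 without the congenic female pool. Of 25 genes of growth factor, Ras and Akt signalling, 2 were higher in the congenic strain than in BDIX, Plekhh1 and Prkce, against 4.31% of all probes, and 1 lower, Rps6ka5, against 7.57%, which in sum is near the 11.9% of the background. The kinase Akt1 was not called in any comparison, with congenic minus BDIX at 0.28 and BDIV minus BDIX at -0.11.

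Of the 171 probes not tested, 4 had signal above background on all 6 arrays but an averaged detection p that kept them out: Abhd1, Ccdc175, Fut8 and Serpina11. Fut8, the enzyme that adds core fucose to glycoproteins, read 11.01 and 11.21 in the congenic pools, 10.50 and 10.28 in the BDIV pools and 11.14 and 12.28 in the BDIX pools. Abhd1, an alpha/beta hydrolase gene, read 7.45 and 7.60 in the congenic pools, 8.73 and 8.85 in the BDIV pools and 8.47 and 8.05 in the BDIX pools, with the congenic values lowest and the BDIV values highest. These genes were chosen after their values were seen. Entering these probes by their signal left the congenic minus BDIX count at 35 and gave 112 calls in congenic minus BDIV and 101 in BDIV minus BDIX.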

How the data were processed

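RNA from 6 pools of trigeminal nerve was hybridised to Illumina BeadChips. Per the file headers, the authors deposited linear signal intensity that was not normalised, beside a detection p-value for each probe. Their processed intensity values, also deposited, served as an alternative. The submitters' processing notes name BeadStudio 3.0. Signals went through limma's normexp correction, with the background estimated from detection p-values, then an offset of 16, quantile normalisation and log2. Probes detected at p under 0.01 on 2 or more arrays were tested in limma 3.58.1 (R 4.3.3) with strain and sex as terms, an intensity trend and Benjamini-Hochberg adjustment over 10484 probes. The fit had 2 residual and 5.23 prior degrees of freedom. Rows whose processed value lay off the array's straight line on the signal by over 0.02 of its size on any array, 242 in all, were left out. The reason for the mismatch was not tested. Chromosome 6 probes were read from that fit, and chromosomes and gene order came from the GRCr8 gene table, which held 13349 of the 13387 named probes by gene number. No genome build is given for the probes, and gene positions served for order only. The number of arrays limits the precision. Named genes were the 12 largest called differences in each direction and comparison with 1 sign in both sexes, Plekhh1 and 5 tested neighbours on either side, up to 4 genes of each list, and the gene of smallest p in each block. Lrfn5, Klc1, Zfp36l2, Ahr, Mta1, Akt1, Srp54a, Fntb, Ptpn21 and Serpina1 are named beyond this rule, after their values were seen. The members and lists were chosen with earlier results of these data known. Alternatives covered scaling, background, offset, detection filter, sex term, strains fitted, the processed values and each array left out. The fit was tested on simulated data.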

Additional observations from a re-analysis of the deposited data

Results flagged for a closer look

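In 9 differences of 8 genes the male and female pools moved in opposite directions by at least 0.5 on the log2 scale each. With 1 pool per sex and strain these differences between the sexes were not tested, and the values below are the male difference minus the female difference. For Pomc, the hormone precursor of the pituitary, congenic minus BDIX was -3.66 in males and 0.68 in females, which gives -4.33. Pituitary markers, of which Pomc is a member, summed to 301.8 and 7762 in the congenic male and female pools, 142.8 and 396.6 in the BDIV pools and 1765 and 5815 in the BDIX pools. For Epcam, an epithelial adhesion protein, congenic minus BDIX gave -3.66 (-0.89 in males, 2.77 in females) and BDIV minus BDIX gave -3.40, the BDIX male pool reading 8.32 and the BDIX female pool 5.53. The BDIV male pool was not above the detection limit for Epcam. For Dlk1, a non-canonical Notch ligand, congenic minus BDIX gave -2.68, with the congenic female pool at 7.21 and the congenic male pool at 5.32, but the congenic male and BDIX female pools were not above the detection limit, so this value has no exact size. Congenic minus BDIX gave -1.14 for Churc1, and congenic minus BDIV gave -1.59 for Prkd1. BDIV minus BDIX gave -1.08 for Etv1, -1.25 for Ift43 and -1.66 for Siva1. The part of pituitary or epithelial cells in these values was not tested.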

How the results depend on the processing

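Plekhh1 was called against BDIX in the congenic strain and in BDIV under all 8 other settings that gave a value, and Gpx2 under all 9. The count of chromosome 6 genes called between the congenic strain and BDIX was 35. It was 55 under median scaling, 17.0% against 17.5% of all probes. Without a detection filter it was 16, 3.31% against 3.19%, and without the sex term 53, 16.4% against 15.6%. With 1 array left out it was lowest without the congenic female pool and highest without the BDIX male pool, as was the share over all probes. The count between the congenic strain and BDIV, 110, was 171 with only the 2 strains fitted and ran from 34 to 173 with 1 array left out, lowest without the BDIV female pool and highest without the BDIX male pool. The count between BDIV and BDIX, 97, ran from 27 to 139, lowest without the BDIV female pool. The cause of these shifts was not tested. Under median scaling 67.3% of the congenic minus BDIX calls were higher in the congenic strain, against 42.9%, and 56.6% of the congenic minus BDIV calls, against 47.3%, as the median over all probes shifted by 0.19 and 0.20. With the authors' processed values 55.5% of the congenic minus BDIV calls were higher. Without the BDIV female pool 70.4% of the BDIV minus BDIX calls were higher, against 51.5%. The share called in the block of Plekhh1 was 6 of 20 genes with blocks of 20 and 17.5% with blocks of 40, against 13.3%, in congenic minus BDIX, and 47.5% with blocks of 40, against 43.3%, in congenic minus BDIV. The correlation of females against males was 0.063 with the authors' processed values, against 0.11, and that of males against females 0.30, against 0.28. Of named genes called in the congenic minus BDIX comparison 6 of 28 kept the call with each array left out in turn, 23 of 52 in congenic minus BDIV and 21 of 52 in BDIV minus BDIX. Of the named genes 2 changed sign in an alternative, Lrrn3 in congenic minus BDIX, which ran from -0.49 to 0.60 with 1 array left out (the BDIX male and the BDIX female pool), and Max in congenic minus BDIV to 0.042 under median scaling. The alternatives for averaged detection p, for correlations without Plekhh1 and Gpx2 and for blocks under each setting were added after the data were seen. The labels carry no replicate numbers, and pools of the same sex are matched across strains by the sex term of the fit. Low signal over background on the congenic arrays limits what can be read of dim genes there.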
